A study of Rattus norvegicus with 9 samples.

Results

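Resistance exercise was compared with no exercise in rats whose ovaries had been removed, by RNA-seq of the left tibia. The 3 rats of the RE/Ovx group and the 3 rats of the NE/Ovx group were taken by their GEO labels, which makes 6 of the 9 rats sequenced, and all 14520 genes that passed a filter on low counts, of 22589 listed, were examined. The animals were female Sprague-Dawley rats bought at 9 weeks of age and fed for 1 week before surgery. Rats of both groups underwent bilateral ovariectomy, an operation that removes the main source of estrogen and is used as a model of bone loss after menopause. The NE/Ovx rats were kept without exercise. The RE/Ovx rats had 2 weeks of adaptive climbing and then, from week 13, climbed a ladder with a weight for 12 weeks, on 5 days a week, in 4 sets of 3 climbs a day. The load was 50% of body weight in weeks 1 to 4 and 75% in weeks 5 to 8, and it reached the whole body weight after that. The other 3 rats, the Sham group, had a sham operation, and their values are given only beside those of the ovariectomized rats. Tibias were collected 24 weeks after the operation, when skin, muscle, ligament and tendon had been removed. Rats are named by the number in their label, and 3 values in a row always refer to NE/Ovx rats 6, 8 and 9, to RE/Ovx rats 3, 5 and 8, and to Sham rats 7, 8 and 12.

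Bone is remodelled throughout life by osteoclasts, which dissolve the matrix with acid and proteases, and by osteoblasts, which lay down collagen and mineral. Osteocytes, osteoblasts that have become buried in the matrix, sense load and send signals to both cell types. Loss of estrogen raises the rate of resorption above that of formation, and load on the skeleton is known to favour formation. A whole tibia also holds marrow, fat, vessels, growth plate and nerve, so that a lower value in these bulk samples can mean fewer cells of a type or less RNA in each cell, and these cannot be told apart. The markers of bone and marrow were detected in all 6 rats. Bglap, which encodes osteocalcin of mature osteoblasts, measured 169, 328 and 339.9 CPM in the NE/Ovx rats and 243, 373 and 331 CPM in the RE/Ovx rats. Mpo, the myeloperoxidase of developing neutrophils, measured 896, 819 and 941 CPM in the NE/Ovx rats and 769, 614 and 936 CPM in the RE/Ovx rats.

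Total counts ran from 13568808 to 16671533 in the NE/Ovx group and from 12967456 to 14946389 in the RE/Ovx group. Over the log2 values of all tested genes, Pearson's r between rats was 0.978 to 0.982 within the NE/Ovx group, 0.977 to 0.984 within the RE/Ovx group and 0.974 to 0.982 between the groups, and these ranges overlapped. Compared with the NE/Ovx group, 0 of 14520 genes passed a Benjamini-Hochberg adjusted p of 0.05 in edgeR's quasi-likelihood test, and the smallest adjusted p was 0.537. At an unadjusted p under 0.05, 767 genes were called (5.28% of those tested), 248 of them higher in the RE/Ovx group (1.71%) and 519 lower (3.57%), and with library totals in place of TMM factors the split was 325 to 412. The study's own thresholds also asked for a fold change over 1.2 or under 0.83. Applied to edgeR's test, they kept 680 genes (4.68%), with 223 higher (1.54%) and 457 lower (3.15%). The study used DESeq2 and reported more genes for this comparison, so these are not its counts. In 1682 genes (11.6%) the 3 values of one group all lay outside the 3 of the other, 689 of them higher with exercise (4.75%) and 993 lower (6.84%). Such separation of 3 values from 3 gives an exact permutation p of 0.1 for a single gene, the smallest that this design allows. Among the alternatives, edgeR on these 6 rats alone called 1 gene, DESeq2 on all 9 libraries 5 genes, and DESeq2 on the 6 rats without the filter 154 genes. Nothing is therefore called changed below unless the tool is named, and calls by DESeq2 on the 6 rats are named for some genes only. Values are given for each rat as CPM, counts scaled to the size of its library. Beside them stand the log2 fold change, RE/Ovx over NE/Ovx, and its 95% interval from the fit of all 9 libraries.

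The differences between the groups were small for most genes, and the intervals show how small. The median log2 fold change was 0.0079, the quartiles were -0.11 and 0.12, and 1% of genes lay below -1.08 and 1% above 0.86. A difference of more than 2-fold was measured for 270 genes, 90 higher and 180 lower. For 11826 genes (81.4%) the whole 95% interval lay within 2-fold in either direction, and for 8843 (60.9%) within 1.5-fold. Precision depended on the level of the gene. The median distance from the estimate to the end of its interval was 1.26 on the log2 scale for genes below 1 CPM and 0.24 for genes above 6 on the log2 CPM scale, so that for the lowest genes even a change of 2-fold was not detectable at this depth.

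The 3 genes with the smallest p among all those higher with exercise, Dbp, Hlf and Nr1d2, belong to the circadian clock. In this clock, which runs in most cells, BMAL1 (encoded by Arntl) and CLOCK switch on the Per and Cry genes, whose proteins shut them off again, and also the nuclear receptors Nr1d1 and Nr1d2, which repress Arntl. Output is carried by the related transcription factors Dbp, Tef and Hlf, which switch on genes through D-box sites, and by Nfil3, which represses genes through the same sites. Dbp measured 11.3, 9.96 and 10.8 CPM in the NE/Ovx rats and 33.2, 28.3 and 32.5 CPM in the RE/Ovx rats, without overlap and with little spread within either group, a log2 fold change of 1.55 (95% interval 1.02 to 2.08) or 2.93-fold. Hlf measured 4.19, 4.63 and 5.33 CPM in the NE/Ovx rats and 10.5, 10.1 and 11.2 CPM in the RE/Ovx rats, a log2 fold change of 1.16 (95% interval 0.73 to 1.59). Tef, the third member of this family, measured 23.6, 22.4 and 25.2 CPM in the NE/Ovx rats and 38.3, 32.9 and 42.2 CPM in the RE/Ovx rats, a log2 fold change of 0.67 (95% interval 0.33 to 1.01). All 3 factors were thus higher in each RE/Ovx rat than in any NE/Ovx rat. Nfil3, their opponent at D-box sites, went the other way, with 27.5, 28.5 and 27.5 CPM in the NE/Ovx rats and 19.0, 17.3 and 17.7 CPM in the RE/Ovx rats and a log2 fold change of -0.63 (95% interval -0.85 to -0.41). No other gene was lower in the RE/Ovx group with a smaller p.

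The repressors Nr1d1 and Nr1d2 were higher as well. Nr1d1 measured 9.18, 15.9 and 20.8 CPM in the NE/Ovx rats and 28.0, 51.6 and 48.8 CPM in the RE/Ovx rats, a log2 fold change of 1.48 (95% interval 0.65 to 2.3), and Nr1d2 30.4, 36.0 and 43.2 CPM in the NE/Ovx rats and 53.5, 69.7 and 70.3 CPM in the RE/Ovx rats, a log2 fold change of 0.82 (95% interval 0.44 to 1.2). Arntl, which they repress, measured 31.9, 33.8 and 24.9 CPM in the NE/Ovx rats and 14.8, 26.2 and 19.9 CPM in the RE/Ovx rats, a log2 fold change of -0.57 (95% interval -1.08 to -0.07), and here RE/Ovx rat 5 lay above NE/Ovx rat 9. Per3 measured 28.6, 62.5 and 54.4 CPM in the NE/Ovx rats and 89.4, 79.2 and 67.2 CPM in the RE/Ovx rats and Per2 29.4, 29.7 and 27.8 CPM in the NE/Ovx rats and 42.5, 36.1 and 32.9 CPM in the RE/Ovx rats, both without overlap, but the intervals of the log2 fold change (-0.05 to 1.44 for Per3 and -0.15 to 0.87 for Per2) included 0. Usp2, which encodes a deubiquitinase under clock control, was lower at 14.0, 13.6 and 13.9 CPM in the NE/Ovx rats and 8.61, 10.5 and 10.1 CPM in the RE/Ovx rats, a log2 fold change of -0.51 (95% interval -0.91 to -0.10). In Per1 the groups overlapped. It measured 51.4, 119 and 142 CPM in the NE/Ovx rats and 100.3, 93.2 and 88.4 CPM in the RE/Ovx rats, a log2 fold change of -0.15 (95% interval -0.83 to 0.53), with NE/Ovx rat 6 the lowest of the 6 rats. Npas2, a partner of BMAL1, ranged from 14.2, 19.6 and 16.0 CPM in the NE/Ovx rats to 3.03, 17.5 and 9.96 CPM in the RE/Ovx rats. In all, 5 of the 19 tested clock genes were higher at an unadjusted p under 0.05 and 3 lower, where 1.71% and 3.57% of all genes were, and 7 were higher and 2 lower without overlap, where 4.75% and 6.84% of all genes were.

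Some of these genes were called by other tools. Dbp passed with edgeR on the 6 rats (adjusted p 0.0107) and with DESeq2 on all 9 libraries (adjusted p 7.45e-06), where Hlf (0.00133), Nfil3 (0.00278) and Nr1d2 (0.0286) passed too, beside LOC100911256 (0.00277), whose level in RE/Ovx rat 3 stood far above the rest. In DESeq2 on the 6 rats without the filter, Dbp, Hlf, Tef, Nr1d1, Nr1d2 and Nfil3 passed, 6 of the 154 genes called. Leaving out each rat in turn kept the log2 fold change of Dbp between 1.5 and 1.62, and that of Nfil3 at -0.67 to -0.59. In the Sham rats Dbp measured 12.3, 22.2 and 26.9 CPM, so that the Sham values lay between those of the other groups, and Nfil3 measured 29.1, 25.4 and 27.8 CPM, about the level of the NE/Ovx group. Sham rat 12 was above Sham rats 7 and 8 in Dbp, Hlf, Tef, Nr1d1, Nr1d2 and Per3. The sources used here do not give the hour at which each rat was killed.

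**Figure D1:**
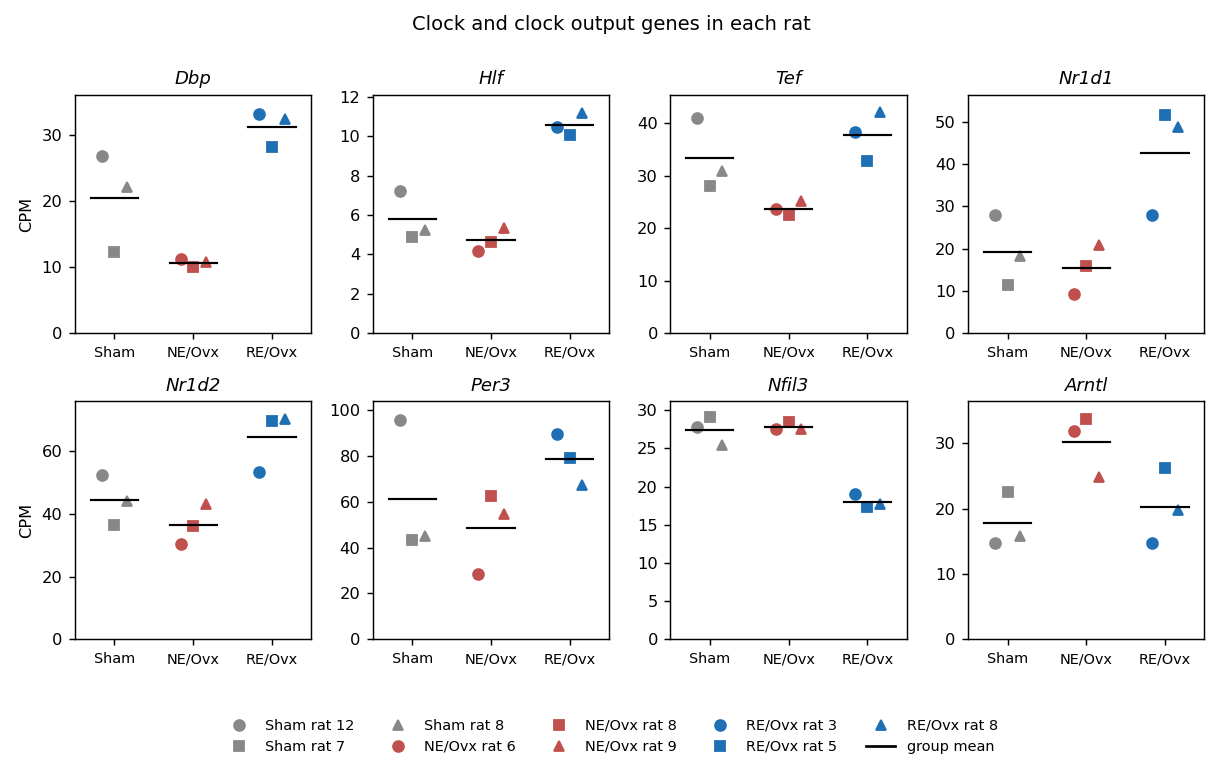
CPM of 8 clock and clock output genes (1 panel a gene, linear axis from 0) in 9 rats (3 a group), each with its own symbol, and the group mean as a line. For Dbp, Hlf, Tef, Nr1d1, Nr1d2 and Per3 the 3 RE/Ovx rats lie above the 3 NE/Ovx rats, for Nfil3 below, and for Arntl the groups overlap.

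The sequences before the start sites of these genes are shown because clock factors act on each other's genes through short sites of known sequence. Of the 20 symbols on the clock list, 17 were matched to RefSeq windows of the build GRCr8, some with 2 start sites, 19 windows in all. Each sequence is the 250 bases before the start on the gene's strand, 5′ to 3′, with the E-box CACGTG (bound by BMAL1 with CLOCK) and the D-box TTATGTAA or TTACGTAA (bound by Dbp, Tef, Hlf and Nfil3) in capitals, searched on both strands. Dbp (chr1:105312006-105312255, plus strand) and Nfil3 (chr17:12432126-12432375, plus strand), the genes with the smallest p in each direction, hold none of these letters in this window. Tef (chr7:115206577-115206826, plus strand) and Nr1d1 (chr10:84229455-84229704, minus strand) hold an E-box, the latter in 1 of its 2 windows, and Per2 (chr9:99496994-99497243, minus strand) a D-box.
Dbp: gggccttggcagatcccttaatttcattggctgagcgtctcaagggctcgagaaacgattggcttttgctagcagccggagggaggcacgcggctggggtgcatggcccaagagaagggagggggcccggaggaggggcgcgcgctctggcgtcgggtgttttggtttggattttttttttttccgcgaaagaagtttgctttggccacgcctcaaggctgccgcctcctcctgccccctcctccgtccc
Nfil3: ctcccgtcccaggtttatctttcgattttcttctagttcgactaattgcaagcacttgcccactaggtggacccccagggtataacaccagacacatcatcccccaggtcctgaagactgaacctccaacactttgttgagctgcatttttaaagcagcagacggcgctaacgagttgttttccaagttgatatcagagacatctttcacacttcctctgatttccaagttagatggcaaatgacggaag
Tef: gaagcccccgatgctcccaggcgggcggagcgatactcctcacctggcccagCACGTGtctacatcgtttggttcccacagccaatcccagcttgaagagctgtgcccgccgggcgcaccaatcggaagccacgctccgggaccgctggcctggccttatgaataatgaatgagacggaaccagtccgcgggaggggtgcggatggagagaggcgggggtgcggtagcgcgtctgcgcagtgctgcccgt
Nr1d1: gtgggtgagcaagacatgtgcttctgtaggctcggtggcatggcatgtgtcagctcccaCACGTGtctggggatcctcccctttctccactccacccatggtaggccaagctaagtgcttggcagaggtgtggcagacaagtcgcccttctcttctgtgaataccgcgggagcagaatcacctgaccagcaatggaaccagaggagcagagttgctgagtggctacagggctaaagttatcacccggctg
Per2: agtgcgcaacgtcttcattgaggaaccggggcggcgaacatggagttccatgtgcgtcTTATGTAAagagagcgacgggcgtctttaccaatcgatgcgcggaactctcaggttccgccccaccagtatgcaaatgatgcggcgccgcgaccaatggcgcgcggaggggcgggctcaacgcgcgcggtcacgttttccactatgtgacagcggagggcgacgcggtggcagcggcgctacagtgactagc

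The E-box lay 198 bases before the start of Tef and 191 before that of Nr1d1, and the D-box 192 bases before that of Per2. Of the 19 windows 5 held an E-box, those of Bhlhe40, Bhlhe41 and Ciart beside Tef and Nr1d1, and 5.59% of the 33469 windows of all genes did. The D-box TTATGTAA was in 0.828% of all windows and TTACGTAA in 0.108%. Another motif, AGGTCA, the core of the sites of the receptors Nr1d1, Nr1d2 and ROR, was searched as well and lay in the windows of Arntl (Bmal1 in RefSeq), Nr1d2 and Usp2, and in 14.1% of all windows. Of the genes with an E-box, Tef and Nr1d1 were higher with exercise and in Bhlhe40, Bhlhe41 and Ciart the groups overlapped. A match of letters is a description and does not show that a factor binds there.

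Genes of skeletal muscle were lower in the exercised rats, although muscle had been taken off the bones. Of the 34 tested genes 34 had a negative log2 fold change (median -0.95), whereas 51.8% of all genes had a positive one. Of the 34, 22 were lower at an unadjusted p under 0.05 against 3.57% of all genes, and 26 were lower without overlap against 6.84% of all genes. Their summed level was 21874, 17811 and 17994 CPM in the NE/Ovx rats and 9330.2, 12646 and 8325 CPM in the RE/Ovx rats, and no gene of the list was at 0. Ttn, the giant spring protein of the sarcomere, measured 11336, 8531 and 8305 CPM in the NE/Ovx rats and 4742, 6243 and 4362 CPM in the RE/Ovx rats, a log2 fold change of -0.88 (95% interval -1.61 to -0.14). Actn3, an actin crosslinker of fast fibres, measured 273, 252 and 222 CPM in the NE/Ovx rats and 93.7, 129 and 72.9 CPM in the RE/Ovx rats, a log2 fold change of -1.34 (95% interval -2.10 to -0.57). Myh4, the myosin heavy chain of the fastest fibres, measured 1546, 1339.8 and 1224 CPM in the NE/Ovx rats and 503, 711 and 427 CPM in the RE/Ovx rats, a log2 fold change of -1.32 (95% interval -2.09 to -0.55). In Ttn, Actn3 and Myh4 the groups did not overlap. Pvalb, the calcium buffer of fast fibres, measured 108, 119.7 and 83.9 CPM in the NE/Ovx rats and 46.3, 39.2 and 32.3 CPM in the RE/Ovx rats, a log2 fold change of -1.40 (95% interval -2.37 to -0.44). A difference between fibre types was not tested. In Myh7, the slow myosin heavy chain, the groups overlapped. It measured 143, 80.1 and 81.0 CPM in the NE/Ovx rats and 41.7, 119.6 and 54.0 CPM in the RE/Ovx rats, a log2 fold change of -0.50 (95% interval -1.49 to 0.49), with RE/Ovx rat 5 inside the range of the NE/Ovx group.

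The muscle level varied as much among rats without ovariectomy. Averaged over the list on the log2 scale and centred on each gene's mean, it was 0.58, 0.33 and 0.37 in the NE/Ovx rats, -0.63, -0.03 and -0.82 in the RE/Ovx rats and 0.56, -0.95 and 0.58 in the Sham rats, where Sham rat 8 was the lowest of all 9. In DESeq2 on the 6 rats, 24 of the 127 genes called lower were on this list. Leaving out each rat kept the median between -1.17 and -0.82, and in a fit with the muscle level as a covariate it was -0.09, which follows from the covariate being the level of this same list. Values from that fit are given below beside some genes. Since the muscle level also separates the groups, muscle and exercise cannot be told apart in it. It moved the counts at the study's thresholds to 327 higher and 319 lower.

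Some enzymes of glycolysis and some genes of energy sensing were lower in the same rats as muscle. Gapdh, an enzyme of glycolysis that served as the RT-qPCR reference of the study, measured 470.4, 425 and 547 CPM in the NE/Ovx rats and 312, 343 and 314 CPM in the RE/Ovx rats, a log2 fold change of -0.57 (95% interval -1.0 to -0.15), without overlap, and -0.18 with the muscle covariate. Aldoa, the aldolase that muscle shares with most tissues, measured 640.4, 565 and 662 CPM in the NE/Ovx rats and 389.7, 443 and 365 CPM in the RE/Ovx rats, a log2 fold change of -0.64 (95% interval -1.13 to -0.15), and -0.11 with the covariate. Pkm and Ldha, which act at the end of the pathway, had log2 fold changes of -0.41 (95% interval -0.67 to -0.16) and -0.38 (95% interval -0.63 to -0.12), and -0.28 and -0.26 with the covariate. Of the 27 glycolytic genes and hypoxia targets, 9 were lower at an unadjusted p under 0.05 against 3.57% of all genes and 0 higher, and 10 were lower without overlap against 6.84%. Of 24 genes of energy sensing and response to exercise, 4 were lower at this p and 0 higher, and 20 had a negative log2 fold change (median -0.11). Without overlap 8 were lower and 1 higher, where 6.84% and 4.75% of all genes were. Prkaa2, a catalytic subunit of the energy sensor AMPK, measured 56.8, 53.4 and 51.7 CPM in the NE/Ovx rats and 37.1, 38.2 and 29.1 CPM in the RE/Ovx rats, a log2 fold change of -0.63 (95% interval -1.18 to -0.09) that became -0.04 with the covariate. Pdk4, which keeps pyruvate out of mitochondria, had 34.4, 31.9 and 53.1 CPM in the NE/Ovx rats and 4.58, 20.9 and 19.0 CPM in the RE/Ovx rats, a log2 fold change of -1.43 (95% interval -2.66 to -0.20). Fndc5, the precursor of irisin, measured 12.7, 8.23 and 10.9 CPM in the NE/Ovx rats and 6.32, 6.34 and 7.26 CPM in the RE/Ovx rats, a log2 fold change of -0.67 (95% interval -1.19 to -0.16). Nuclear genes of oxidative phosphorylation had a median log2 fold change of -0.07, with 0 of 37 past an unadjusted p of 0.05 and the interval of 36 of the 37 within 2-fold. DESeq2 on the 6 rats called Gapdh, Aldoa, Pkm, Ldha and Prkaa2 lower. The part of muscle in these values was not tested.

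**Figure D2:**
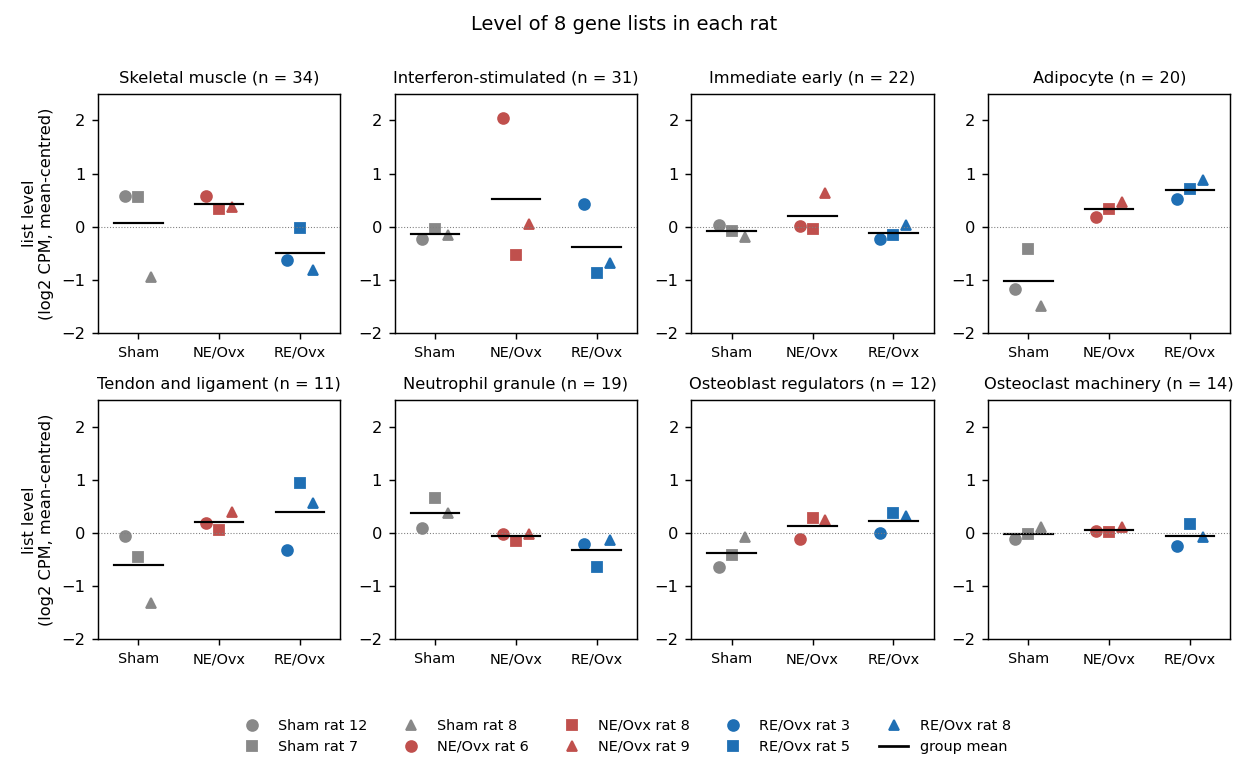
Level of 8 gene lists in each rat (mean over the list of log2 CPM after subtraction of each gene's mean over the 9 rats, no unit), with rats as symbols, group means as lines and the number of genes tested above each panel. The muscle level is lower in each RE/Ovx rat than in any NE/Ovx rat, while the interferon level is high in NE/Ovx rat 6 (2.04) and the early gene level in NE/Ovx rat 9 (0.64).

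Acp5, Calcr, Fos and Fosb were among the genes the study measured by RT-qPCR, and the counts of these genes depended on single rats. Acp5, the tartrate-resistant acid phosphatase of osteoclasts, measured 457, 467 and 605 CPM in the NE/Ovx rats and 305, 514 and 308 CPM in the RE/Ovx rats, a log2 fold change of -0.44 (95% interval -1.0 to 0.12). RE/Ovx rats 3 and 8 were below every NE/Ovx rat, but RE/Ovx rat 5 was above NE/Ovx rats 6 and 8, and without RE/Ovx rat 5 the log2 fold change was -0.73. Calcr, the calcitonin receptor through which osteoclasts are restrained, measured 1.03, 1.45 and 2.06 CPM in the NE/Ovx rats and 4.51, 1.83 and 2.31 CPM in the RE/Ovx rats, a log2 fold change of 0.92 (95% interval -0.23 to 2.08), of which 0.45 was left without RE/Ovx rat 3. Fos, a part of the AP-1 factor that precursors need to become osteoclasts, measured 31.4, 28.4 and 84.5 CPM in the NE/Ovx rats and 23.6, 18.7 and 30.7 CPM in the RE/Ovx rats, a log2 fold change of -0.98 (95% interval -1.84 to -0.12). NE/Ovx rat 9 was far above the others and without it the value was -0.28. Fosb, a relative of Fos, measured 8.22, 9.2 and 64.2 CPM in the NE/Ovx rats and 9.55, 6.72 and 11.5 CPM in the RE/Ovx rats, a log2 fold change of -1.56 (95% interval -3.07 to -0.05), and without NE/Ovx rat 9 the sign turned to 0.10.

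Among other osteoclast genes, Tcirg1 and Mmp9 had the smallest p. Tcirg1, the proton pump subunit of the resorbing membrane, measured 205, 208 and 163 CPM in the NE/Ovx rats and 146, 152 and 146 CPM in the RE/Ovx rats, a log2 fold change of -0.38 (95% interval -0.63 to -0.12), and -0.42 with the muscle covariate. Mmp9, a gelatinase of osteoclasts and also of neutrophils, measured 524, 551 and 514 CPM in the NE/Ovx rats and 399, 468 and 429 CPM in the RE/Ovx rats, a log2 fold change of -0.29 (95% interval -0.54 to -0.05). In both genes the groups did not overlap and each rat could be left out without a change of sign. Ctsk, the collagen-degrading protease of osteoclasts, overlapped, with 605, 639 and 754 CPM in the NE/Ovx rats and 362, 923 and 522 CPM in the RE/Ovx rats and a log2 fold change of -0.14 (95% interval -0.82 to 0.53). Of 14 genes for fusion, acid and resorption, 2 were lower at an unadjusted p under 0.05, where 3.57% of all genes were, and 0 higher. Without overlap 2 of these were lower (Tcirg1 and Mmp9) and 1 higher (Itgav, log2 fold change 0.20), where 6.84% and 4.75% of all genes were. Of 17 transcription factors 2 were lower at an unadjusted p under 0.05, Fos and Fosb, whose NE/Ovx mean rat 9 sets, and 0 higher. Of 11 signals and receptors 0 passed this p in either direction. Without overlap 1 was higher (Trem2) and 2 lower (Tyrobp and Sirpa), where 4.75% and 6.84% of all genes were, with log2 fold changes of 0.68, -0.18 and -0.16. Trem2 was low, at 1.40, 1.18 and 1.94 CPM in the NE/Ovx rats and 2.76, 2.14 and 2.38 CPM in the RE/Ovx rats. Nfatc1, the master factor of osteoclast formation, had a log2 fold change of -0.08 (95% interval -0.33 to 0.18), and Csf1r, the receptor for the survival factor M-CSF, of 0.08 (95% interval -0.21 to 0.37). Both intervals lay within 1.5-fold. Tnfrsf11a, which encodes RANK, measured 8.52, 7.13 and 9.03 CPM in the NE/Ovx rats and 5.32, 10.3 and 6.87 CPM in the RE/Ovx rats, with overlap. Tnfsf11, which encodes RANKL, and Dcstamp, a fusion protein, did not pass the filter on low counts.

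**Figure D3:**
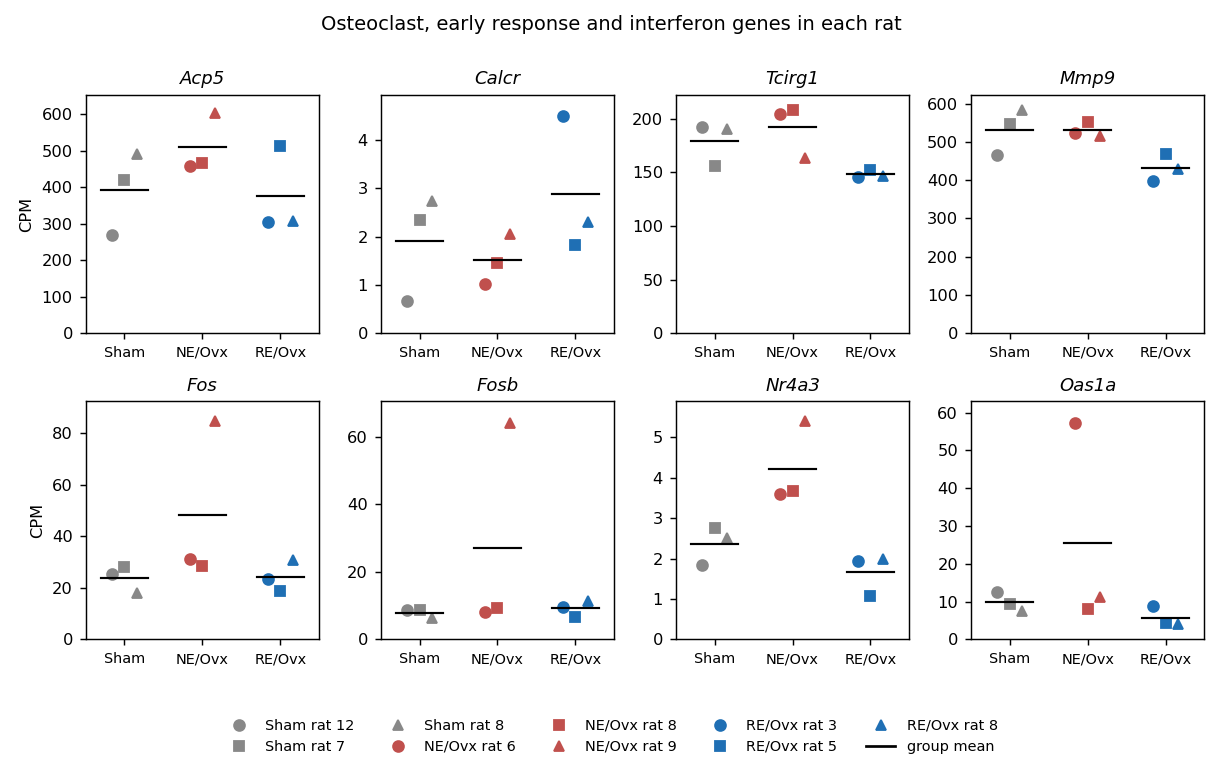
CPM of 8 osteoclast, early response and interferon genes (linear axis from 0) in 9 rats (3 a group), each with its own symbol, and the group mean as a line. Tcirg1, Mmp9 and Nr4a3 are lower in the 3 RE/Ovx rats without overlap, while the NE/Ovx mean of Fos and Fosb is set by rat 9 (84.5 and 64.2 CPM) and that of Oas1a by rat 6 (57.3 CPM).

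Fos and Fosb belong to the immediate early genes, which cells switch on within minutes of a stimulus without making new protein. Of 22 such genes 6 were lower at an unadjusted p under 0.05 against 3.57% of all genes and 0 higher, and 7 were lower without overlap against 6.84%. Nr4a3, an orphan nuclear receptor, measured 3.60, 3.67 and 5.39 CPM in the NE/Ovx rats and 1.95, 1.07 and 1.99 CPM in the RE/Ovx rats, a log2 fold change of -1.33 (95% interval -2.04 to -0.62) that stayed at -1.48 to -1.09 as rats were left out. Its relative Nr4a1 measured 29.4, 23.8 and 47.0 CPM in the NE/Ovx rats and 13.8, 14.8 and 18.3 CPM in the RE/Ovx rats, a log2 fold change of -1.10 (95% interval -1.78 to -0.41), and -0.64 with the muscle covariate. Dusp1, a phosphatase that ends MAP kinase signals, measured 119, 160.0 and 228 CPM in the NE/Ovx rats and 116, 107 and 108 CPM in the RE/Ovx rats, a log2 fold change of -0.62 (95% interval -1.11 to -0.12). Atf3, a stress factor, measured 5.36, 2.49 and 7.45 CPM in the NE/Ovx rats and 2.29, 2.06 and 2.76 CPM in the RE/Ovx rats, a log2 fold change of -1.10 (95% interval -1.96 to -0.25). Of the list, DESeq2 on the 6 rats called Nr4a1 alone. The genes named here shared a rat. NE/Ovx rat 9 held the highest value of the 6 rats in Fos, Fosb, Nr4a1, Nr4a3, Atf3 and Dusp1. The median log2 fold change of the list was -0.23 with all rats and -0.02 without NE/Ovx rat 9, against 0.0079 over all genes.

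No gene on the lists for bone formation separated the groups. Of 12 osteoblast regulators, 11 matrix genes and 9 osteocyte genes, 0 passed an unadjusted p of 0.05 and 0 were without overlap, and by edgeR's interval 12, 9 and 9 of them differed by less than 2-fold. Runx2, the master factor of osteoblasts, measured 124, 155 and 158 CPM in the NE/Ovx rats and 122, 190.1 and 165 CPM in the RE/Ovx rats, a log2 fold change of 0.13 (95% interval -0.22 to 0.47). The rats of both groups were mixed in order. Sp7, which acts after it, measured 33.3, 50.1 and 36.9 CPM in the NE/Ovx rats and 37.0, 57.5 and 50.9 CPM in the RE/Ovx rats, a log2 fold change of 0.27 (95% interval -0.26 to 0.80) that became -0.02 with the muscle covariate. Col1a1, the main chain of bone collagen, measured 14462, 23781 and 19974 CPM in the NE/Ovx rats and 15607, 25414 and 18801 CPM in the RE/Ovx rats, a log2 fold change of 0.04 (95% interval -0.51 to 0.59), and NE/Ovx rat 6 and RE/Ovx rat 3 were the lowest of their groups. Osteocalcin (Bglap), whose values are given above, had a log2 fold change of 0.18 (95% interval -0.45 to 0.80), with the same pair of rats lowest. Col1a2 measured 278, 817 and 348 CPM in the NE/Ovx rats, 800, 823 and 1085 CPM in the RE/Ovx rats and 96.7, 248 and 580 CPM in the Sham rats. Its log2 fold change was 0.91 (95% interval -0.35 to 2.16), and that of Ogn, another matrix gene, was 1.06 (95% interval -0.63 to 2.75). Both intervals included 0 and reached past 2-fold. Sost, by which osteocytes restrain bone formation and which load is known to lower, measured 3.97, 11.3 and 9.64 CPM in the NE/Ovx rats and 10.4, 6.65 and 9.44 CPM in the RE/Ovx rats, a log2 fold change of 0.08 (95% interval -0.82 to 0.99). Dmp1, an osteocyte matrix protein, measured 106, 148 and 224 CPM in the NE/Ovx rats and 159.6, 169 and 171 CPM in the RE/Ovx rats, a log2 fold change of 0.06 (95% interval -0.54 to 0.66). In the Sham rats Col1a1 measured 5239, 7466 and 5244 CPM and Bglap 100.2, 95.5 and 58.8 CPM, below all 6 ovariectomized rats. The comparison of NE/Ovx with Sham uses the same 3 NE/Ovx rats as the comparison with exercise.

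Few genes of mechanosensing passed an unadjusted p of 0.05. Their log2 fold changes ran from -0.52 to 0.61, and of the 24 intervals 21 lay within 2-fold and 10 within 1.5-fold. Piezo1, a channel opened by stretch of the membrane, measured 319.6, 351 and 327 CPM in the NE/Ovx rats and 319.7, 343 and 291 CPM in the RE/Ovx rats, a log2 fold change of -0.06 (95% interval -0.36 to 0.23). Ptgs2, which makes prostaglandins in loaded bone, measured 6.39, 5.53 and 5.94 CPM in the NE/Ovx rats and 4.51, 2.98 and 4.88 CPM in the RE/Ovx rats, lower in each RE/Ovx rat with a log2 fold change of -0.52 (95% interval -1.03 to -0.02). Pxn, the focal adhesion protein paxillin, was also lower, at 165, 189.8 and 159 CPM in the NE/Ovx rats and 148, 130.4 and 142 CPM in the RE/Ovx rats and a log2 fold change of -0.29 (95% interval -0.49 to -0.09). Of the 24 genes on the list, 1 was higher and 2 lower at an unadjusted p under 0.05, where 1.71% and 3.57% of all genes were. The one that was higher was Igf1.

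The growth hormone axis was higher at its receptor and its product. Igf1, the growth factor that bone cells and muscle make in response to growth hormone and load, measured 85.1, 89.8 and 102 CPM in the NE/Ovx rats and 134, 124 and 164 CPM in the RE/Ovx rats, a log2 fold change of 0.61 (95% interval 0.19 to 1.03), without overlap. Ghr, the growth hormone receptor, measured 62.8, 76.4 and 74.8 CPM in the NE/Ovx rats and 95.1, 112 and 108 CPM in the RE/Ovx rats, a log2 fold change of 0.56 (95% interval 0.20 to 0.92), also without overlap. With the muscle covariate the values were 0.58 and 0.82, and leaving out rats kept Igf1 at 0.48 to 0.70 and Ghr at 0.47 to 0.62. In DESeq2 on the 6 rats both passed, among 27 genes called higher. Igf1r, the receptor for IGF-1, measured 146, 180.1 and 146 CPM in the NE/Ovx rats and 132, 133 and 142 CPM in the RE/Ovx rats, a log2 fold change of -0.21 (95% interval -0.47 to 0.04). Igfbp5, the binding protein most abundant in bone matrix, had 108, 97.7 and 104 CPM in the NE/Ovx rats and 106, 134 and 181 CPM in the RE/Ovx rats, where RE/Ovx rat 3 overlapped the NE/Ovx rats. Of the 17 genes of this axis 3 were higher at an unadjusted p under 0.05, Ghr, Igf1 and the low Igfals, against 1.71% of all genes, and 0 lower. Without overlap 5 were higher, against 4.75% of all genes, and 1 lower, which was Igf1r, against 6.84% of all genes. In the Sham rats Ghr measured 49.0, 29.7 and 38.3 CPM and Igf1 104, 75.2 and 58.3 CPM, so that Ghr was higher in each ovariectomized rat than in any Sham rat.

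**Figure D4:**
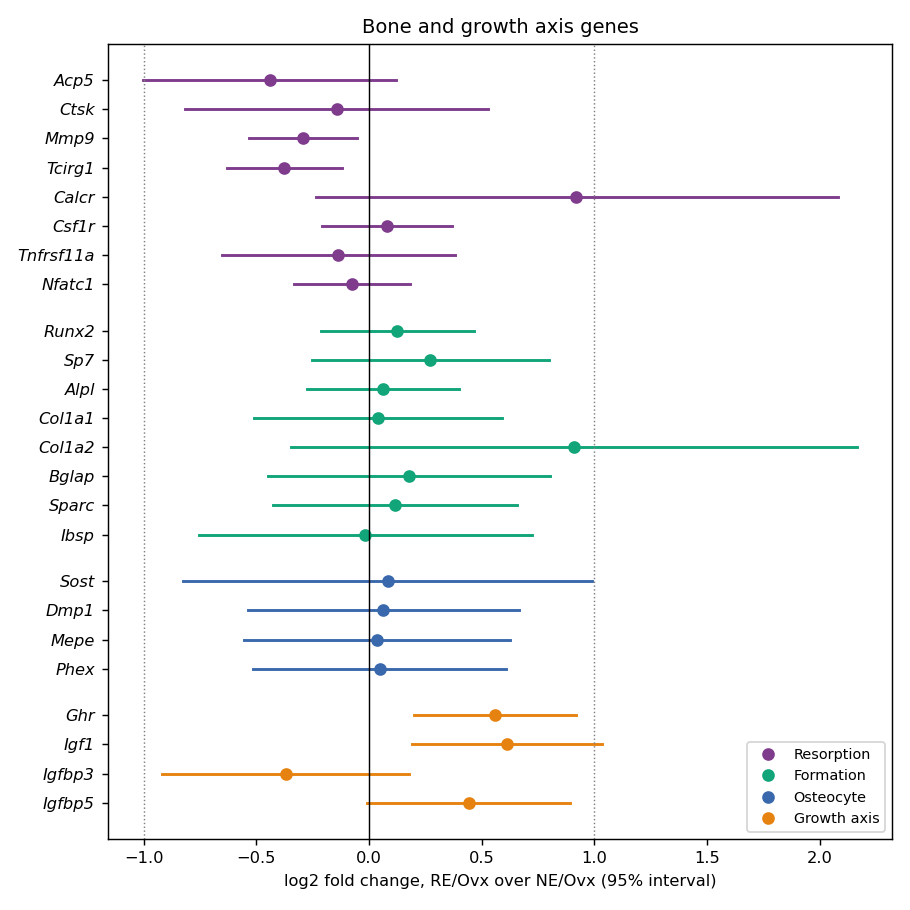
Log2 fold change, RE/Ovx over NE/Ovx, with its 95% interval from edgeR's quasi-likelihood fit for genes of resorption, formation, osteocytes and the growth axis, where dotted lines mark 2-fold. The intervals of Tcirg1, Mmp9, Ghr and Igf1 leave out 0, while those of Runx2, Alpl, Col1a1 and Dmp1 include 0 and lie within 2-fold. That of Col1a2 includes 0 and reaches past 2-fold.

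Signalling genes that control osteoblasts showed small differences of mixed kind. Of all genes 51.8% had a positive log2 fold change. Of 26 Wnt genes 23 had a positive log2 fold change (median 0.27, and 0.09 without RE/Ovx rat 5), but only Tcf7, a nuclear partner of beta-catenin, passed an unadjusted p of 0.05, at 7.27, 13.3 and 11.8 CPM in the NE/Ovx rats and 14.5, 18.8 and 16.3 CPM in the RE/Ovx rats and a log2 fold change of 0.61 (95% interval 0.06 to 1.16). Of 30 genes of TGF-beta, BMP and activin signalling, 2 were higher at this p and 2 lower, where 1.71% and 3.57% of all genes were. Ltbp1, which stores latent TGF-beta in the matrix, had a log2 fold change of 0.34 (95% interval 0.04 to 0.64), and Tgfbr3, its co-receptor, of 0.28 (95% interval 0.01 to 0.55). Inhba, the activin subunit, measured 69.0, 66.6 and 60.5 CPM in the NE/Ovx rats and 49.6, 52.0 and 60.5 CPM in the RE/Ovx rats, a log2 fold change of -0.27 (95% interval -0.49 to -0.06). Id1, a target of BMP signals, measured 21.1, 34.2 and 32.2 CPM in the NE/Ovx rats and 19.8, 22.1 and 24.1 CPM in the RE/Ovx rats, a log2 fold change of -0.41 (95% interval -0.79 to -0.02). Of 13 estrogen receptors and target genes 1 was higher, Ccnd1, the cyclin that starts the cell cycle, at 27.8, 26.2 and 29.2 CPM in the NE/Ovx rats and 33.0, 38.4 and 43.6 CPM in the RE/Ovx rats and a log2 fold change of 0.47 (95% interval 0.17 to 0.77). Greb1, a gene that estrogen induces, measured 2.28, 1.80 and 2.42 CPM in the NE/Ovx rats and 2.76, 4.66 and 3.60 CPM in the RE/Ovx rats and 13.3, 21.0 and 7.83 CPM in the Sham rats. Greb1 was higher in each RE/Ovx rat than in any NE/Ovx rat, with a log2 fold change of 0.75 (95% interval -0.07 to 1.58), and below every Sham rat.

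Some genes of fat cells and of fatty acid synthesis were higher in the RE/Ovx group. Of 20 adipocyte genes, 16 had a positive log2 fold change (median 0.36), 3 were higher at an unadjusted p under 0.05 against 1.71% of all genes, and 6 were higher without overlap against 4.75% and 0 lower. The level of the list was 0.19, 0.33 and 0.46 in the NE/Ovx rats, 0.52, 0.70 and 0.87 in the RE/Ovx rats and -0.42, -1.48 and -1.17 in the Sham rats, so that the 3 groups did not overlap. Pparg, the master factor of adipocytes, measured 15.0, 14.9 and 18.4 CPM in the NE/Ovx rats and 21.6, 21.9 and 21.5 CPM in the RE/Ovx rats, a log2 fold change of 0.43 (95% interval 0.13 to 0.73). Plin1, which coats lipid droplets, measured 46.9, 73.2 and 63.8 CPM in the NE/Ovx rats and 70.7, 108 and 111 CPM in the RE/Ovx rats, a log2 fold change of 0.65 (95% interval 0.17 to 1.14). Adipoq, the adipocyte hormone adiponectin, measured 55.4, 50.5 and 71.3 CPM in the NE/Ovx rats and 79.1, 84.4 and 111 CPM in the RE/Ovx rats, a log2 fold change of 0.63 (95% interval -0.18 to 1.44). In each of these the RE/Ovx mean was above the NE/Ovx mean, and NE/Ovx and RE/Ovx rats overlapped only in Plin1. Slc7a10, an amino acid transporter of white fat cells, measured 6.90, 9.68 and 9.76 CPM in the NE/Ovx rats and 18.5, 16.4 and 14.3 CPM in the RE/Ovx rats, a log2 fold change of 0.90 (95% interval 0.46 to 1.33). Lgals12, a galectin of lipid droplets, measured 4.04, 6.30 and 5.82 CPM in the NE/Ovx rats and 13.1, 11.5 and 9.51 CPM in the RE/Ovx rats, a log2 fold change of 1.08 (95% interval 0.51 to 1.65). Both were among the 10 higher genes with the smallest p. DESeq2 on the 6 rats called both, and also Adipoq above and Thrsp below. Of 14 genes of fatty acid synthesis, 11 had a positive log2 fold change (median 0.27, and 0.11 without RE/Ovx rat 3). At an unadjusted p under 0.05, 4 were higher against 1.71% of all genes, and 0 lower. Without overlap 4 were higher against 4.75% of all genes, and 1 lower against 6.84%. Thrsp, a lipogenic protein of liver and fat, was among those past this p, at 22.1, 28.2 and 29.3 CPM in the NE/Ovx rats and 61.8, 35.7 and 46.1 CPM in the RE/Ovx rats and a log2 fold change of 0.85 (95% interval 0.12 to 1.58). Fasn, the fatty acid synthase, measured 162, 161 and 176 CPM in the NE/Ovx rats and 384, 176 and 192 CPM in the RE/Ovx rats, where RE/Ovx rat 3 stood apart, and without this rat its log2 fold change of 0.59 was 0.15. With the muscle covariate the median of the adipocyte list was 0.64. Of 19 genes of cholesterol synthesis and uptake (median 0.05) 1 was higher at an unadjusted p under 0.05, against 1.71% of all genes. Without overlap 3 were lower, against 6.84% of all genes, and 0 higher.

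Some genes of cytokines, their receptors and neutrophil granules were lower in the RE/Ovx group. Of 20 genes of cytokines and receptors 7 were lower at an unadjusted p under 0.05 against 3.57% of all genes and 0 higher. Osm, the cytokine oncostatin M of myeloid cells, measured 33.4, 21.0 and 31.2 CPM in the NE/Ovx rats and 14.1, 13.9 and 19.9 CPM in the RE/Ovx rats, a log2 fold change of -0.84 (95% interval -1.48 to -0.20), and Csf2rb, the shared chain of the receptors for GM-CSF, IL-3 and IL-5, 72.2, 84.4 and 75.3 CPM in the NE/Ovx rats and 61.9, 52.6 and 66.5 CPM in the RE/Ovx rats, a log2 fold change of -0.36 (95% interval -0.58 to -0.13). In both genes every RE/Ovx rat was below every NE/Ovx rat, and DESeq2 on the 6 rats called Osm. Il17ra, the receptor for IL-17, measured 581, 710.2 and 519 CPM in the NE/Ovx rats and 512, 411 and 463 CPM in the RE/Ovx rats, a log2 fold change of -0.38 (95% interval -0.69 to -0.08). All 19 tested genes of neutrophil granules had a negative log2 fold change (median -0.23, and -0.11 without RE/Ovx rat 5), whereas 51.8% of all genes had a positive one. Of the 19, 3 were lower at an unadjusted p under 0.05, and 6 were lower without overlap against 6.84% of all genes. Fpr1, a receptor for bacterial peptides, measured 33.5, 30.8 and 34.3 CPM in the NE/Ovx rats and 26.8, 19.1 and 27.3 CPM in the RE/Ovx rats, a log2 fold change of -0.43 (95% interval -0.75 to -0.11). The list level of neutrophils was -0.01, -0.15 and -0.02 in the NE/Ovx rats and -0.20, -0.63 and -0.13 in the RE/Ovx rats, which overlap at NE/Ovx rat 8 and RE/Ovx rat 8. Of 16 macrophage genes 11 had a negative log2 fold change (median -0.12), 1 was lower at an unadjusted p under 0.05 and 0 were without overlap. Of 23 chemokines and chemokine receptors 12 had a negative one (median -0.02), 1 was lower at this p and 4 were lower without overlap, against 6.84% of all genes.

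The interferon-stimulated genes were set apart by 1 rat. Of 31 genes 30 had a negative log2 fold change, with a median of -1.41, and 11 were lower at an unadjusted p under 0.05 against 3.57% of all genes, but 0 were without overlap. Oas1a, a sensor of double-stranded RNA, measured 57.3, 8.02 and 11.3 CPM in the NE/Ovx rats and 8.95, 4.28 and 3.98 CPM in the RE/Ovx rats. Siglec1, a lectin of macrophages that interferon induces, measured 63.7, 9.06 and 14.7 CPM in the NE/Ovx rats and 17.8, 7.49 and 6.55 CPM in the RE/Ovx rats. NE/Ovx rat 6 held the highest value in both, and the list level of 2.04 in this rat compared with -0.52 and 0.05 in the other NE/Ovx rats and 0.42, -0.87 and -0.68 in the RE/Ovx rats. Without NE/Ovx rat 6 the median was 0.0099. 

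Few genes of other cell types passed an unadjusted p of 0.05. Of all genes 1.71% were higher at this p and 3.57% lower. Of 19 endothelial genes 2 were higher at this p and without overlap (4.75% of all genes were without overlap in this direction), Tek, the receptor for angiopoietins, at 56.0, 53.1 and 54.7 CPM in the NE/Ovx rats and 62.5, 68.5 and 76.7 CPM in the RE/Ovx rats and a log2 fold change of 0.34 (95% interval 0.14 to 0.55), and Kdr, the main receptor for VEGF, at 69.8, 74.5 and 73.5 CPM in the NE/Ovx rats and 84.6, 82.9 and 100.4 CPM in the RE/Ovx rats and a log2 fold change of 0.30 (95% interval 0.08 to 0.52). Of 24 erythroid genes 0 passed an unadjusted p of 0.05 and the intervals of 22 lay within 2-fold. Of 41 proliferation genes 1 passed, and the intervals of 41 lay within 2-fold. Of 22 B cell genes 1 was higher, Fcer2, the low-affinity IgE receptor, at 0.881, 2.84 and 2.85 CPM in the NE/Ovx rats and 4.58, 3.74 and 5.01 CPM in the RE/Ovx rats. Of 21 T and NK cell genes 18 had a positive log2 fold change and 3 a negative one, where 51.8% of all genes had a positive one. The median of this list was 0.31, and 0.07 without NE/Ovx rat 6. Its 1 gene past an unadjusted p of 0.05 was lower. This was Nkg7, a granule protein, at 75.2, 82.8 and 83.2 CPM in the NE/Ovx rats and 58.8, 47.5 and 65.5 CPM in the RE/Ovx rats and a log2 fold change of -0.49 (95% interval -0.89 to -0.09). Cartilage genes (21) and tendon genes (11) gave 0 in either direction, and the tendon level, at -0.32, 0.93 and 0.57 in the RE/Ovx rats, covered the range of the NE/Ovx rats. Cytosolic ribosomal protein genes had positive log2 fold changes in 38 of 39 (median 0.15), of which 1 passed an unadjusted p of 0.05 and the intervals of 37 lay within 2-fold. The widest shift with a rat left out was that of the interferon list.

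**Figure D5:**
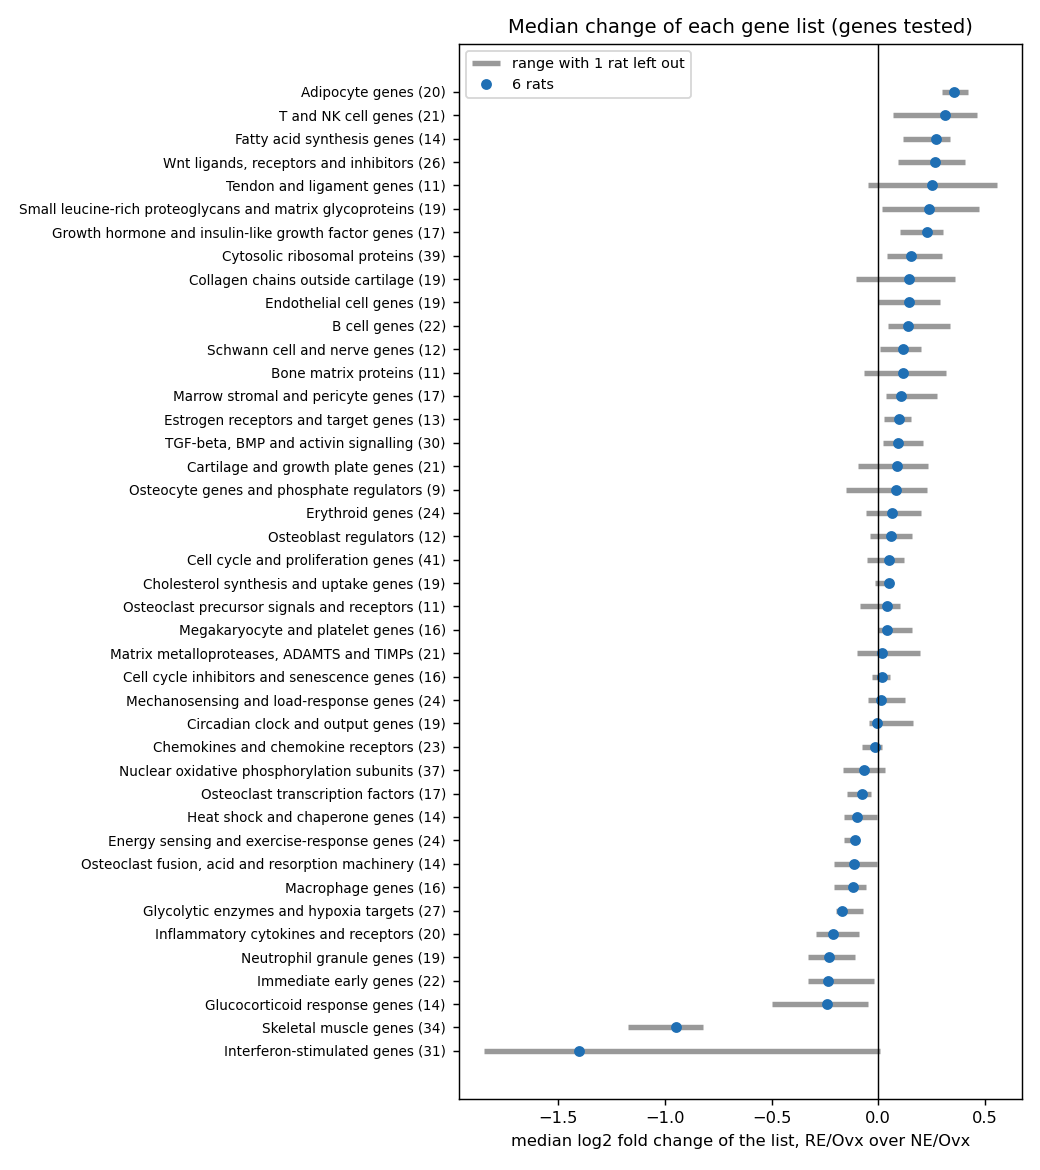
Median log2 fold change, RE/Ovx over NE/Ovx, of 42 gene lists (points) with the lowest and highest median when 1 of the 6 rats is left out (grey bars) and the number of genes tested in brackets. The muscle median stays at -0.82 or below, the interferon bar reaches from -1.85 to 0.0099, and the medians of the bone lists lie near 0.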

How the data were processed

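RNA from the left tibias of 9 rats, 3 a group, was sequenced after depletion of ribosomal RNA with a strand-keeping kit. For each gene and rat the authors deposited a read count, which is a whole number, together with an FPKM value. The submitters' processing notes list, with no version or role, HISAT2, Bowtie2, StringTie, Trimmomatic and DESeq, and the build Rnor_6.0. Use of the strand in counting is not given in these sources, so overlapping and near-identical genes may share reads. Each rat is a separate animal per the labels. Counts of all 9 libraries were fitted by group with edgeR 4.0.16 in R 4.3.3 (filterByExpr, TMM factors, quasi-likelihood test), and p values were adjusted by Benjamini and Hochberg over 14520 genes. Intervals are centred on the log2 fold change fitted without a prior count, and reach the t quantile at 95% times a standard error to either side. This standard error was that fold change, without its sign, divided by the square root of the test's F value. CPM uses the effective library size, and the level of a list is a mean of log2 CPM values made with a prior count of 2. Alternatives were DESeq2 1.42.0, limma 3.58.1 on log2 FPKM with pseudocounts of 1 and 0.1, other factors and filters, 1 rat left out, and the mean level of the muscle list as a covariate, which differs between the groups and so widens their intervals.

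The comparison and the 42 gene lists were chosen with earlier results of these data known. Genes were named by a rule: those the study measured by RT-qPCR, the 10 higher and 10 lower with the smallest p and those with the largest fold change among separated groups (log2 CPM of 1 or more on average), up to 4 of each list by p, and up to 5 called by each alternative. A further 21 genes (Adipoq, Aldoa, Arntl, Bglap, Col1a1, Csf1r, Ctsk, Dmp1, Igf1r, Mpo, Myh7, Nfatc1, Npas2, Per1, Per2, Per3, Piezo1, Sost, Tnfrsf11a, Ttn and Usp2) were chosen after their values were seen. Results for a few genes that the rule names are not reported here. Promoter sequences come from RefSeq (GRCr8), another build than that of the counts, and no position of the counts was used.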

Additional observations from a re-analysis of the deposited data

How the results depend on the processing

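Adjusted p under 0.05 was passed by 0 genes in edgeR with library totals or median-of-ratios factors, without a filter, with at least 10 counts in each library, the muscle covariate or any 1 rat left out, and in limma on log2(FPKM + 1), log2(FPKM + 0.1) or FPKM of at least 1 in 3 libraries. It was passed by 1 gene in edgeR on the 6 rats, by 5 in DESeq2 on all 9 libraries and by 154 in DESeq2 on the 6 rats without the filter, and the cause was not tested. With 1 rat left out the genes at the study's thresholds numbered 481 to 1025, the most without RE/Ovx rat 3, where 549 were higher and 476 lower, and those at an unadjusted p under 0.05 numbered 505 to 1084, the fewest without NE/Ovx rat 6. At an unadjusted p the split was 339 higher and 392 lower in limma on log2(FPKM + 1), and the genes with an interval within 2-fold numbered 10684 to 13918 over the alternatives, DESeq2 not being run for this count. Of 214 named genes 193 kept their sign under every alternative. The sign turned with the muscle covariate for Sp7 (-0.016), Dlx3 (-0.12), Gp1ba (-0.051), Vpreb2 (-0.38), Col1a1 (-0.11), Dmp1 (-0.26), Sost (-0.11), Myh7 (0.43), Piezo1 (0.0016) and Tnfrsf11a (0.012). With 1 rat left out the log2 fold change took both signs for Fosb (-1.99 to 0.10), Hsp90aa1 (-1.32 to 0.17) and Per1 (-0.47 to 0.16), whose sign turned without NE/Ovx rat 9, and for Bglap (-0.083 to 0.36) and Dmp1 (-0.16 to 0.40), which turned without NE/Ovx rat 6. It did so for Ctsk (-0.59 to 0.12), Nfatc1 (-0.15 to 0.037), Tnfrsf11a (-0.43 to 0.058) and Alas2 (-0.092 to 0.25) without RE/Ovx rat 3, for Runx2 (-0.018 to 0.29), Ogn (-0.061 to 1.43) and Col5a2 (-0.012 to 0.31) without RE/Ovx rat 5, and for Prg4 (-0.44 to 0.78) without RE/Ovx rat 8. Col1a1 (-0.17 to 0.21) turned without NE/Ovx rat 6 or RE/Ovx rat 5, and Sost (-0.25 to 0.37) without NE/Ovx rat 6 or RE/Ovx rat 3. Of these genes, Fosb alone was past an unadjusted p of 0.05 with all rats. No paired analysis was made, because each rat is a separate animal and the labels give no pairing. The number 8 occurs in the labels of both groups but names different rats. Depth limits the low genes most.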

Other observations

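Some genes outside the lists, named for their small p, separated the groups. Tmem38b, a cation channel of the endoplasmic reticulum whose loss causes a recessive form of brittle bone disease, measured 31.2, 30.9 and 29.9 CPM in the NE/Ovx rats and 21.8, 22.9 and 22.5 CPM in the RE/Ovx rats, a log2 fold change of -0.45 (95% interval -0.64 to -0.27), and 34.1, 34.1 and 33.7 CPM in the Sham rats. It stayed at -0.46 to -0.43 as rats were left out. DESeq2 on the 6 rats called it, and of the genes below in this paragraph also Nrg1, Gyg1 and Prkag3. Nrg1, a growth factor that binds ERBB receptors, measured 27.5, 27.0 and 24.6 CPM in the NE/Ovx rats and 18.3, 15.3 and 19.4 CPM in the RE/Ovx rats, a log2 fold change of -0.58 (95% interval -0.85 to -0.30), and -0.71 with the muscle covariate. Napsa, an aspartic protease, measured 171, 176 and 153 CPM in the NE/Ovx rats and 130.3, 96.4 and 128 CPM in the RE/Ovx rats, a log2 fold change of -0.49 (95% interval -0.75 to -0.23), and Mocos, which activates molybdenum enzymes, 25.1, 30.4 and 23.4 CPM in the NE/Ovx rats and 18.8, 16.1 and 18.3 CPM in the RE/Ovx rats, a log2 fold change of -0.56 (95% interval -0.85 to -0.28). Ltbp2, a matrix protein that binds fibrillin, was higher, at 42.7, 39.6 and 37.2 CPM in the NE/Ovx rats and 47.5, 57.2 and 65.3 CPM in the RE/Ovx rats and a log2 fold change of 0.51 (95% interval 0.23 to 0.78), and Slc22a3, an organic cation transporter, measured 4.85, 6.16 and 7.39 CPM in the NE/Ovx rats and 11, 9.86 and 10.6 CPM in the RE/Ovx rats, a log2 fold change of 0.77 (95% interval 0.37 to 1.18). Gyg1, which primes glycogen synthesis, measured 79.2, 69.7 and 76.1 CPM in the NE/Ovx rats and 54.2, 58.5 and 53.5 CPM in the RE/Ovx rats, a log2 fold change of -0.44 (95% interval -0.67 to -0.20), and Prkag3, the AMPK subunit of muscle, 5.87, 7.40 and 3.27 CPM in the NE/Ovx rats and 1.82, 2.29 and 1.16 CPM in the RE/Ovx rats, a log2 fold change of -1.65 (95% interval -2.57 to -0.75).

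Among the genes with the largest differences were several in which the RE/Ovx rats differed widely from each other. LOC100911256, known only by this identifier, measured 3.82, 5.81 and 6.24 CPM in the NE/Ovx rats and 3799, 13.4 and 157 CPM in the RE/Ovx rats, and 4.19, 55.0 and 93.5 CPM in the Sham rats. Map2k3, a MAP kinase kinase, measured 1.84, 2.14 and 2.36 CPM in the NE/Ovx rats and 16.5, 2.67 and 8.03 CPM in the RE/Ovx rats, with RE/Ovx rat 3 again highest. RT1-Ba, a class II antigen of the major histocompatibility complex whose reads near-identical copies may share, measured 5.65, 29.5 and 23.2 CPM in the NE/Ovx rats and 42.7, 37.6 and 93.0 CPM in the RE/Ovx rats, without overlap.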
